A study of Mus musculus with 4 samples.

Results

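The regulators of c-Myc protein stability described here are 9 genes whose products put ubiquitin on c-Myc, remove it or prepare c-Myc for it. They are the F-box genes Fbxw7, Skp2 and Btrc, the ligase core genes Cul1 and Rbx1, the ligase gene Huwe1, the kinase gene Gsk3b and the deubiquitinase genes Usp28 and Usp36. Their members were chosen by gene symbol, as all probe sets (groups of short probes that report on 1 transcript) annotated to exactly 1 of these genes. That gave 30 probe sets of 9 genes, out of 45037 probe sets tested and 18193 genes named. Transcripts were measured on Affymetrix mouse arrays in LSK cells, the lineage-negative, c-Kit and Sca1 positive fraction of bone marrow that holds the blood stem cells and multipotent progenitors. Cells from mice labelled WT B6/129, whose cells made a c-Myc-eGFP fusion protein, were sorted without any treatment into a Hi group and a Lo group by the amount of that fusion protein, with 2 arrays each. The age of the mice, whether marrow was pooled and whether the 2 arrays of a group came from separate animals were not given in the labels used here, so p-values measure the spread between these arrays, which may be technical.

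The c-Myc protein is short-lived. Gsk3b adds a phosphate to a short motif near its start, Fbxw7 recognises that motif and, as the receptor of an SCF ubiquitin ligase built on Cul1 and Rbx1, hands c-Myc to the proteasome, and Usp28 and Usp36 can remove the ubiquitin again. Fbxw7 is known in blood stem cells for holding c-Myc protein down and for preserving quiescence. Since Hi and Lo were sorted on the protein, the comparison asks whether the transcripts of its known regulators go with its amount. All values below are log2 intensities after the authors' RMA normalization, and a difference is Hi minus Lo, fitted with limma and given with its moderated standard error (SE).

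Among the 9 genes, Skp2 stood apart. In 5 of its 6 probe sets each Hi array exceeded each Lo array, with differences of 1.32 to 1.78 on the log2 scale, that is 2.50-fold to 3.43-fold higher in Hi. For Fbxw7, Cul1, Rbx1, Usp28, Gsk3b and Huwe1 the probe set with the highest mean overlapped between the groups, and its difference ran from -0.15 for Rbx1 to 0.39 for Usp28. The same held for Usp36 at 0.06. No member passed limma's adjusted p of 0.05 over all probe sets (smallest 0.0839, for 2 Skp2 probe sets), and neither did any other probe set, so the background was 0% called in either direction. With no adjustment, 7 of the 30 member probe sets reached a p under 0.05 with a higher and 1 with a lower level in Hi, against 9.05% higher and 8.91% lower of all probe sets. Of these 7, 5 belonged to Skp2, and the other two, of Huwe1 and Btrc, lay on all 4 arrays under the dim limit, the brightest signal of controls for absent transcripts. The Hi arrays were both higher than either Lo array in 11 member probe sets, and both lower in 5, against 29.3% and 22.0% of all probe sets. Of the 30 member probe sets, 16 (53.3%) had groups that did not overlap, against 51.3% of all probe sets. Skp2 was set aside because of its values, while no gene was left out of the 51.3%. Without Skp2 it was 10 of 24 member probe sets (41.7%). Among the 18 of these that were above the dim limit on all arrays, it was 5 (27.8%), and 0 reached an unadjusted p under 0.05 with a higher and 1 with a lower level in Hi. The share over all probe sets above that limit was not computed, and 51.3% includes the dim ones. The median difference was 0.10 over the 30 member probe sets and 0.04 over all.

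**Figure D1:**
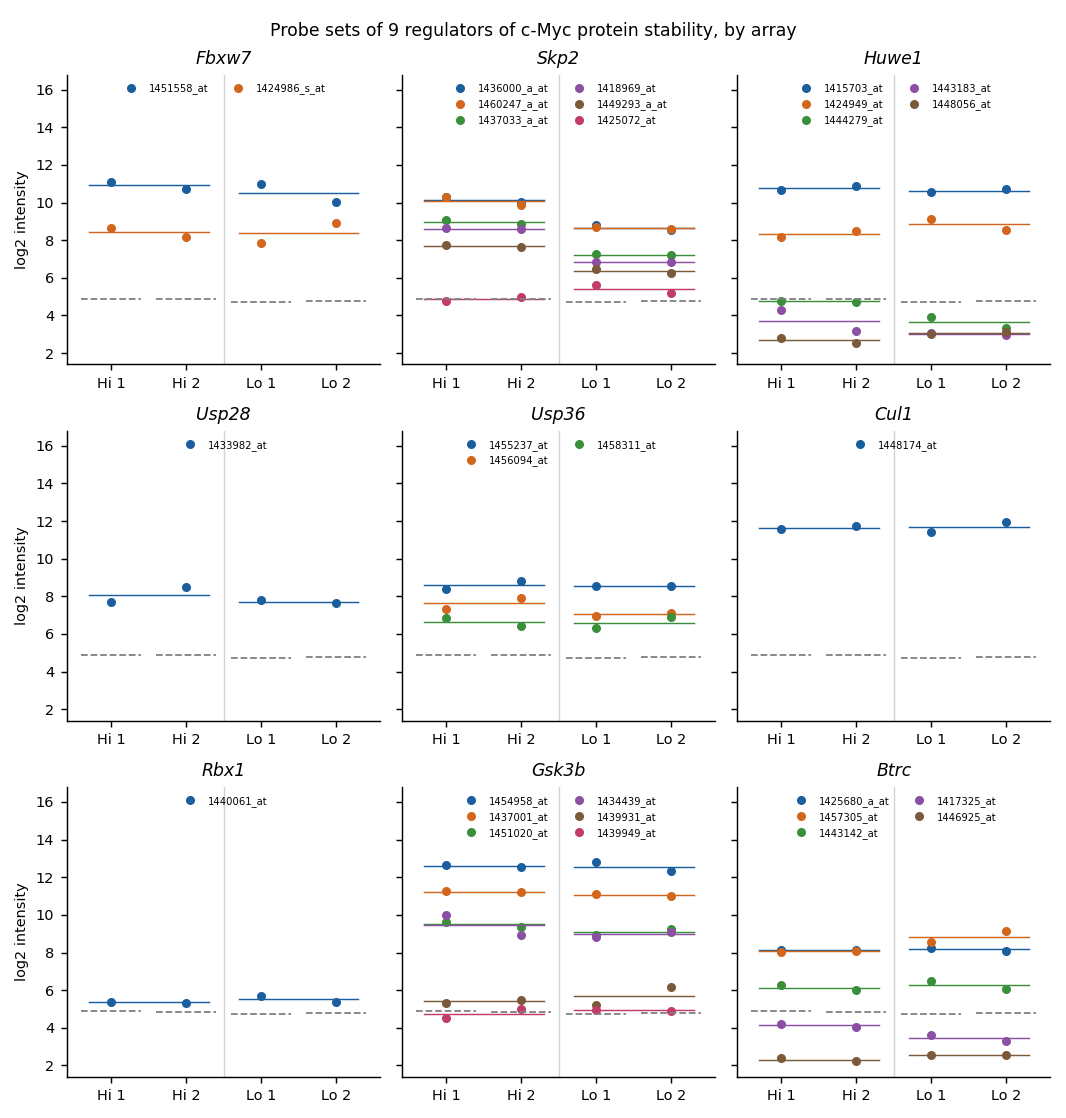
Log2 intensity (y axis) of every member probe set on the 4 arrays (x axis: Hi 1, Hi 2, Lo 1, Lo 2), 1 panel per gene. Points are single arrays, short lines are the means of the 2 arrays of a group, and grey dashes are each array's dim limit, the brightest signal of controls for absent transcripts. In Skp2, 5 of 6 probe sets sit higher in Hi, while the points of Fbxw7, Cul1, Usp28 and Rbx1 overlap between the groups.

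A few facts about the arrays bear on these values. The dim limit of an array, the brightest of 27 such control probe sets, was 4.74 to 4.87. Of the 30 member probe sets, 23 lay above it on all 4 arrays, 5 on none and 2 on some. The LSK genes Kit, Cd34 and Ptprc were above the limit on all arrays, and Ly6a, the gene of Sca1, was not analysed here. Markers of long-term stem cells and some, not all, markers of the erythroid and myeloid lineages moved with the groups. For the counts that follow, 30.0% of all genes had both Hi arrays above both Lo arrays and 25.4% had both below. All 7 measured long-term stem cell markers were lower in both Hi arrays than in both Lo arrays, and their summed level was 12.69 to 12.70 in Hi and 13.94 to 14.07 in Lo. Of 7 erythroid markers 5 were higher in Hi (summed level 13.62 to 13.84 against 11.14 to 11.63). Summed levels add linear intensities, so the brightest genes weigh most. Here that was Car1, with 13.12 and 13.33 in Hi and 9.93 and 10.82 in Lo. Slc4a1 overlapped at -0.16, and so did Alas2, which was never above the dim limit. Of 7 granulocyte and monocyte markers 5 were higher (15.47 to 15.65 against 14.43 to 14.68). Itgam at 0.26 and S100a8 at -0.08 overlapped. The other lists were mixed: both Hi arrays exceeded the Lo arrays in 2 of 5 B cell, 2 of 6 T and NK cell, 3 of 5 megakaryocyte and 2 of 6 endothelial markers, and were below them in 1, 2, 1 and 3. As a sign of RNA quality, the Gapdh control at the 3′ end exceeded that at the 5′ end by 0.63 and 0.65 (log2) on the Hi arrays, and by 0.74 and 0.78 on the Lo arrays. For Actb this excess came to 0.60 and 0.55 on the Hi arrays, against 0.84 and 0.57 on the Lo arrays. The array's control for 18S ribosomal RNA moved more with the groups, with 10.71 and 9.92 in Hi and 9.29 and 8.81 in Lo, so both Hi arrays were above both Lo arrays. The part of these cell type markers and of RNA quality in the values below was not tested. In sorted bulk cells, fewer cells of a type and less RNA per cell cannot be told apart.

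Skp2 (chromosome 15, 9111982 to 9155425 in GRCm38.p6) encodes the F-box receptor that takes the cell cycle inhibitor p27 to the proteasome at the entry into S phase. Skp2 also ubiquitylates c-Myc and is known to act at the same time as its cofactor in transcription. Its brightest probe set, 1436000_a_at, had 10.31 and 10.01 in Hi and 8.78 and 8.56 in Lo, means of 10.16 ± 0.22 and 8.67 ± 0.16 (SD, n = 2 each). Both Hi arrays were more than 1 log2 unit above both Lo arrays. The difference was 1.49 ± 0.19 (SE), or 2.80-fold, with a 95% interval of 0.97 to 2.01 and a limma adjusted p of 0.0956.

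The other probe sets of Skp2 are separate readings of the same RNA samples and not further replicates. Probe set 1418969_at had 8.63 and 8.58 in Hi and 6.84 and 6.82 in Lo, with a difference of 1.78 ± 0.13 (SE) and a limma adjusted p of 0.0839. Probe set 1437033_a_at had 9.05 and 8.85 in Hi and 7.25 and 7.23 in Lo, a difference of 1.71 ± 0.15 (SE). In both, the arrays of a group were much closer to each other than to the other group. Probe set 1460247_a_at had 10.30 and 9.89 in Hi and 8.69 and 8.58 in Lo, a difference of 1.46 ± 0.20 (SE). Probe set 1449293_a_at had 7.72 and 7.64 in Hi and 6.48 and 6.24 in Lo, a difference of 1.32 ± 0.16 (SE). In all 5 the lowest Hi array was at least 1.16 above the highest Lo array.

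The sixth Skp2 probe set, 1425072_at, ran the other way. It had 4.76 and 4.95 in Hi and 5.60 and 5.20 in Lo, close to the dim limit, and was under it on the first Hi array. Its difference of -0.54 ± 0.21 (SE), with an interval of -1.11 to 0.03, did not pass (limma adjusted p = 0.295).

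Whether Skp2 passed differed between fits. In a fit over 1 probe set per gene, limma's adjusted p was 0.049 at the same difference of 1.49, and averaged over its 6 probe sets it differed by 1.20 with an adjusted p of 0.0391. Those fits called 1.04% and 1.39% of genes higher and 1.18% and 1.52% lower. Of the 9 genes, Skp2 was the only one called in either fit. With single arrays left out its difference stayed between 1.33 (without Hi replicate 1) and 1.64 (without Hi replicate 2).

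**Figure D2:**
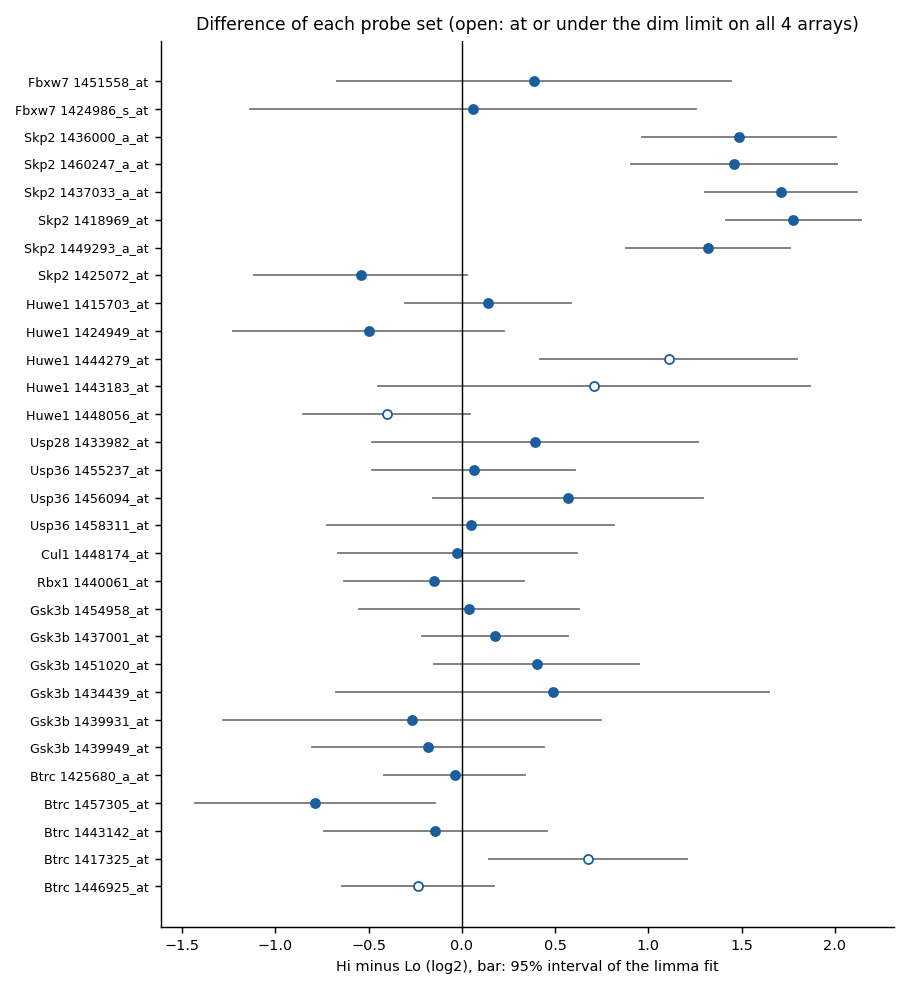
Hi minus Lo on the log2 scale (x axis) for each of the 30 member probe sets (y axis), with the 95% interval of the limma fit as a bar. Open points never rose above the dim limit; the intervals of 5 Skp2 probe sets lie wholly above 0.88, while those of both Fbxw7 probe sets span 0.

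RefSeq gives 2 starts for Skp2 in GRCm38.p6, both on the minus strand, at chr15:9140455-9140704 and chr15:9155426-9155675 for the 250 bases before each start. They are printed because Skp2 is the member that differed most. Capitals mark the letters CGGAAG or their reverse complement CTTCCG, the core of sites bound by ETS family factors; the words searched for were chosen after the values were seen.

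Skp2, window at chr15:9140455-9140704: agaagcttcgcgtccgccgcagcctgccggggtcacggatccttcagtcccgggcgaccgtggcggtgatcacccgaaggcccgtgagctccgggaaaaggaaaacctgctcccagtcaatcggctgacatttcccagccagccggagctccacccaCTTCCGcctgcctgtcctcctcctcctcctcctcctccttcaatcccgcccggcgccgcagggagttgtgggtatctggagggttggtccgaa
Skp2, window at chr15:9155426-9155675: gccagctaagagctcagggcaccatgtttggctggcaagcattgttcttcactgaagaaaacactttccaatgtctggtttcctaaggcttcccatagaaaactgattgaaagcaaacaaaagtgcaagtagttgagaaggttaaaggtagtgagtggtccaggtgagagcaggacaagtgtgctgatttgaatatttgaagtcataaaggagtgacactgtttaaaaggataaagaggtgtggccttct

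The first window holds CTTCCG once, starting 93 bases before the start, and the second does not hold it. Neither window holds CACGTG, the E-box that c-Myc and its partner Max bind, or any of the E2F words TTTCCCGC, TTTCGCGC, TTTGCCGC and TTTGGCGC. Both strands were searched, and the 3 sets of words do not overlap each other in the windows of the members. Of 32851 windows of this length over all genes, 13.6% held CGGAAG, 6.02% CACGTG and 1.86% an E2F word. Windows were given for 8 of the 9 members, 13 in all. CACGTG was found in 1 of them, before a start of Cul1, and an E2F word in 1, before the start of Rbx1. The probe sets annotated to Cul1 or Rbx1 alone overlapped between the groups, that of Rbx1 only a little above the dim limit. Probe sets shared by Rbx1 and its pseudogene are given below. The part of such words in the values was not tested. CGGAAG was found in 3 of the 13, and so is not particular to Skp2: the other two are the windows of Usp36 and Gsk3b, whose brightest probe sets overlapped between the groups. The 30-base stretches of Cul1 and Rbx1 are shown with their words in capitals: CACGTG, and GCGGGAAA, the reverse complement of the E2F word TTTCCCGC. Those of Usp36 and Gsk3b are not printed.

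Cul1, plus strand, chr6:47453559-47453588: gagacacacatcCACGTGggtatgtgggca
Rbx1, plus strand, chr15:81466186-81466215: ggaggagggggGCGGGAAAcctccgcctgc

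These are matches of letters and no evidence of binding, and a word that was not found says only that these letters are not in this window.

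By the distance between mean-centred log2 values over the 4 arrays, the genes most like Skp2 among 13274 others were E2f8, a repressor of the E2F family, at a distance of 0.05, then Defa3 at 0.06 and Slc35g1 at 0.11. E2f8 had 11.75 and 11.49 in Hi and 10.28 and 10.06 in Lo. Over 4 arrays such likeness is a description of these samples.

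Fbxw7 (chromosome 3, 84814990 to 84979198) gave no reading that separated the groups. The brighter probe set, 1451558_at, had 11.09 and 10.72 in Hi and 10.99 and 10.05 in Lo, so the first Lo array lay between the Hi arrays and the second below both. The dimmer one, 1424986_s_at, had 8.65 and 8.19 in Hi and 7.83 and 8.89 in Lo, and here the second Lo array was the highest of all. Both probe sets are annotated to the same transcript record, and they disagree on which Lo array was the higher by about 1 log2 unit in each direction (0.66 and 0.75 SD within Lo). Their differences were 0.39 ± 0.38 and 0.06 ± 0.43 (SE), with 95% intervals of -0.67 to 1.44 and -1.13 to 1.25. These intervals are wide, and sizeable changes in both directions lie inside them. The spread within groups was larger than in 86.9% and 90.3% of all probe sets. Without Lo replicate 2 the brighter one differed by -0.08 and without Lo replicate 1 by 0.85. Nearest to Fbxw7 in pattern were Zdhhc21 at a distance of 0.08, Hsd17b7 at 0.09 and Plcxd2 at 0.10.

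For the core of the SCF ligase, the probe sets annotated to Cul1 or Rbx1 alone overlapped between the groups. Cul1 (chromosome 6, 47453732 to 47526144), the scaffold on which receptor and enzyme meet, had 11.56 and 11.73 in Hi and 11.42 and 11.93 in Lo, so both Hi arrays lay between the Lo arrays. Its difference was -0.02 ± 0.23 (SE) with a 95% interval of -0.66 to 0.62. Rbx1 (chromosome 15, 81466316 to 81476369), the RING subunit that recruits the ubiquitin-conjugating enzyme, had a single probe set of its own, with 5.40 and 5.32 in Hi and 5.67 and 5.35 in Lo. The groups overlapped and the signal was only a little above the dim limit. Another 5 probe sets are annotated to Rbx1 together with its pseudogene and were left out, since the 2 cannot be told apart there. Of the 3 bright ones among them, 2 had both Hi arrays above both Lo arrays. One had 12.31 and 12.29 in Hi and 12.02 and 12.04 in Lo (0.27 ± 0.13 SE, interval -0.09 to 0.63, limma adjusted p = 0.381), and the other differed by 0.07 ± 0.13 (SE). The third bright one overlapped at -0.18 ± 0.26 (SE), and the 2 dim ones were higher in both Hi arrays by 0.09 and 0.11.

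Gsk3b (chromosome 16, 38089001 to 38246084) encodes the kinase that completes the motif read by Fbxw7. Its brightest probe set, 1454958_at, had 12.63 and 12.56 in Hi and 12.79 and 12.32 in Lo and a difference of 0.04 ± 0.21 (SE). The second, 1437001_at, had 11.27 and 11.20 in Hi and 11.13 and 10.99 in Lo; both Hi arrays were above both Lo arrays, by less than the error of the fit could separate (0.18 ± 0.14 SE, interval -0.21 to 0.57). In 1451020_at both Hi arrays, at 9.64 and 9.38, were also above both Lo arrays, at 8.94 and 9.27 (0.40 ± 0.20 SE, interval -0.15 to 0.95). Over its 6 probe sets the differences ran from -0.27 to 0.49 with a median of 0.11, and 0 had an unadjusted p under 0.05. One of them, 1434439_at, had 10.00 on the first Hi array against 8.84 to 9.10 on the other 3 arrays, so 1 array made most of its difference.

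Btrc (chromosome 19, 45363688 to 45533343) encodes the F-box receptor β-TrCP, which ubiquitylates c-Myc in a way known to steady the protein. Its probe sets did not all point the same way. Probe set 1457305_at had 8.03 and 8.10 in Hi and 8.58 and 9.12 in Lo. Both Hi arrays were lower, by -0.79 ± 0.23 (SE) with an unadjusted p of 0.0273 and a limma adjusted p of 0.217. Probe set 1425680_a_at had 8.12 and 8.13 in Hi and 8.22 and 8.10 in Lo. That is a difference of -0.04 ± 0.14 (SE). Its interval of -0.42 to 0.34 overlaps that of the first, -1.43 to -0.14, and whether these probe sets differ was not tested. Another bright one, 1443142_at, overlapped at -0.14 ± 0.22 (SE), and 2 more never rose above the dim limit. One of these dim ones, 1417325_at, ran upwards, with 4.22 and 4.04 in Hi and 3.63 and 3.28 in Lo (unadjusted p = 0.0240), and no fold is given for it. Averaged over all 5 probe sets, the dim ones included, Btrc differed by -0.11. Of the 3 above the limit, 1 had groups that did not overlap, against 51.3% of all probe sets, the dim ones included.

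Huwe1 (chromosome X, 151800785 to 151935417) encodes a large HECT domain ligase that attaches ubiquitin to c-Myc without an F-box receptor. The brightest probe set, 1415703_at, had 10.66 and 10.87 in Hi and 10.54 and 10.71 in Lo. The groups overlapped, and the difference was 0.14 ± 0.16 (SE) with an interval of -0.30 to 0.59. The other reading above the dim limit, 1424949_at, had 8.17 and 8.49 in Hi and 9.11 and 8.55 in Lo, a difference of -0.50 ± 0.26 (SE) in the opposite direction. The remaining 3 probe sets never rose above the dim limit. One of these, 1444279_at, had an unadjusted p of 0.0111 at 4.77 and 4.71 in Hi and 3.93 and 3.33 in Lo, and since all 4 values are under the limit no fold is given for it.

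The deubiquitinase genes overlapped between the groups in their brightest readings. Usp28 (chromosome 9, 48985319 to 49042517), whose product works with Fbxw7 on c-Myc in the nucleoplasm, had 7.70 and 8.49 in Hi and 7.79 and 7.62 in Lo. The second Hi array alone stood above the rest, and the difference of 0.39 ± 0.31 (SE) was -0.005 without that array. Usp36 (chromosome 11, 118259651 to 118290260), which acts in the nucleolus, had 8.41 and 8.83 in Hi and 8.55 and 8.56 in Lo, a difference of 0.06 ± 0.20 (SE). Of its other probe sets, 1456094_at had 7.32 and 7.93 in Hi and 6.97 and 7.14 in Lo (0.57 ± 0.26 SE, limma adjusted p = 0.363), and 1458311_at overlapped at 0.05 ± 0.28 (SE).

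**Figure D3:**
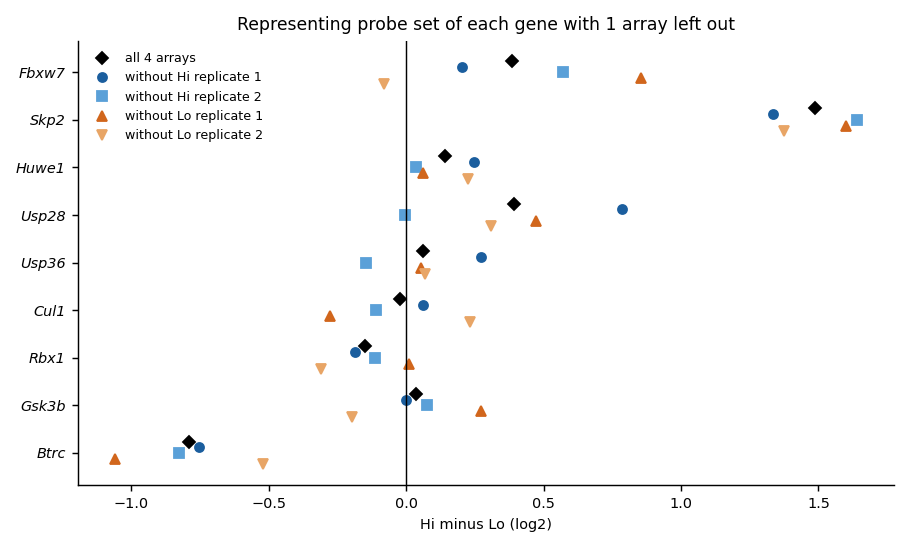
Hi minus Lo on the log2 scale (x axis) of the brightest probe set of each gene (y axis), fitted to all 4 arrays (black) and with 1 array left out (coloured). Skp2 stays between 1.33 and 1.64 and Btrc between -1.06 and -0.52, while Fbxw7 runs from -0.08 to 0.85.

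The genes around the 9 members were taken from lists of known regulators, ligase partners and substrates, with 1 probe set per gene. Over all 18193 genes the median difference was 0.03, 30.0% had both Hi arrays above both Lo arrays and 25.4% had both below. In the fit adjusted over all 45037 probe sets, limma called 0 of them. An unadjusted p under 0.05 was reached by 9.25% with a higher and 11.0% with a lower level in Hi. Among 26 measured further regulators of c-Myc turnover 11 had both Hi arrays above and 6 below, 4 reached that p upwards and 1 downwards, and the median was 0.06. The mitotic kinase gene Plk1 had 9.92 and 9.71 in Hi and 8.05 and 8.40 in Lo (1.59 ± 0.19 SE). Aurka, whose product shields the related N-Myc from Fbxw7, had 10.82 and 10.88 in Hi and 9.52 and 9.80 in Lo (1.19 ± 0.17 SE). The SUMO protease gene Senp1 differed by 1.10 ± 0.27 (SE), and neither these nor any other gene of the list passed an adjusted p of 0.05 over all probe sets. The F-box gene Fbxo32, lowest of this list and named after its value was seen, stood at -0.97 ± 0.22 (SE). Gsk3a, the paralogue of Gsk3b, had 9.82 and 9.72 in Hi and 9.14 and 9.52 in Lo (0.45 ± 0.19 SE).

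In the list of SCF core and cullin cycle genes 9 of 19 had both Hi arrays above and 3 below, 3 reached an unadjusted p of 0.05 upwards and 0 downwards, and the median was 0.16. The 3 were Cdc34, the conjugating enzyme of SCF ligases, at 0.89 ± 0.22 (SE), and the small CDK-binding proteins Cks2 at 0.47 ± 0.14 and Cks1b at 0.38 ± 0.14. Cks1b is the partner that Skp2 needs to bind p27. A second Cks1b probe set had 12.31 on both Hi arrays and 11.50 and 11.30 in Lo, a difference of 0.91 ± 0.15 (SE). The adaptor gene Skp1 was higher in both Hi arrays, by 0.27 ± 0.17 (SE), and overlapped in a second probe set at 0.43 ± 0.32 (SE). Fbxw11, the paralogue of Btrc, stood at -0.22 ± 0.17, and Rnf7, the paralogue of Rbx1, at -0.01 ± 0.14 (SE). A second Rnf7 probe set differed by 0.66 ± 0.13 (SE).

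**Figure D4:**
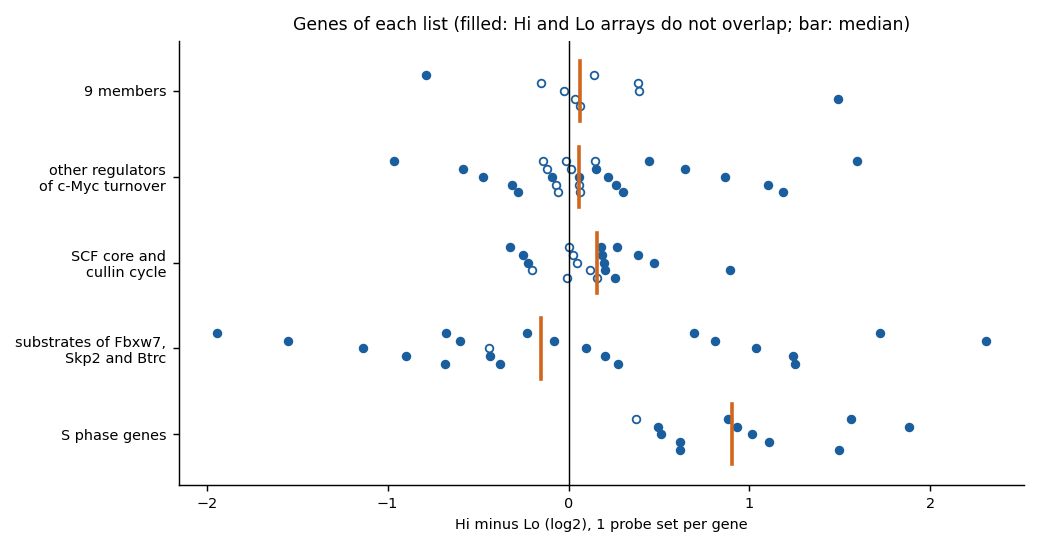
Hi minus Lo on the log2 scale (x axis) of each gene, 1 probe set per gene, in the 9 members and 4 lists (y axis). Filled points have Hi and Lo arrays that do not overlap and orange bars are medians, which run from -0.15 for the substrates to 0.91 for the S phase genes.

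Known substrates of Fbxw7, Skp2 and Btrc went both ways. Of 22 genes 10 had both Hi arrays above and 11 below, 6 reached an unadjusted p of 0.05 upwards and 8 downwards, and the median was -0.15. The cyclin E genes Ccne1 and Ccne2, whose proteins Fbxw7 degrades, had differences of 2.31 ± 0.24 and 1.72 ± 0.20 (SE). Ccne1 had 9.96 and 9.62 in Hi and 7.25 and 7.71 in Lo, so all Hi values lay more than 1 log2 unit above all Lo values. The cell cycle inhibitor gene Cdkn1c, whose protein is a Skp2 substrate, had 5.47 and 6.06 in Hi and 7.73 and 7.69 in Lo (-1.94 ± 0.25 SE). Myc itself had 12.41 and 12.41 in Hi and 11.70 and 10.64 in Lo (1.24 ± 0.40 SE, limma adjusted p = 0.241), and the Lo arrays differed from each other almost as much as the groups did.

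Skp2 is a gene of the cell cycle, so S phase genes are given beside it. Of 12 such genes 11 had both Hi arrays above both Lo arrays and an unadjusted p under 0.05, with a median difference of 0.91 and a summed level of 15.98 in each Hi array against 15.23 and 15.24 in Lo. Tyms, which makes thymidylate, differed by 1.88 ± 0.38 (SE), the origin licensing gene Cdc6 by 1.56 ± 0.16 and the kinase gene Cdk1 by 1.50 ± 0.13. The dimmer Tyms probe sets differed less: 0.87 ± 0.38, 0.98 ± 0.58 with overlapping groups, and -0.03 ± 0.15 (SE) under the dim limit on all 4 arrays. Among the brightest probe sets of the 12 genes, that of Mcm3 alone overlapped, at 0.37 ± 0.27 (SE). The part of a different share of cycling cells in the Skp2 difference was not tested.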

How the data were processed

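The deposited table holds linear intensities, 1 for each probe set on each array, made by the authors with RMA per the submitters' processing notes, whose version was not given. The label protocol gives 5 ng of total RNA, amplified with a NuGEN Ovation kit. They were turned into log2 values with nothing added. RMA evens out the arrays, which hides any shift in RNA content. Of 45101 probe sets, 64 controls were left out. The platform annotation named 1 gene for 34945, several for 932 and none for 9160. A gene was represented by its probe set with the highest mean. Hi minus Lo was fitted with limma 3.58.1 in R 4.3.3 (lmFit, eBayes, two-sided, no block, Benjamini-Hochberg over 45037 probe sets), with 2 residual degrees of freedom and 1.976 from the prior. The number of arrays limits the precision: 2 against 2 allows no exact permutation p below 0.333. On data simulated for Hi minus Lo over 45037 probe sets, 0 of 50 probe sets changed 2-fold and 1 of 50 changed 4-fold were called, 36 of 50 at 16-fold and 45 of 50 at 64-fold. No others were changed in that simulation, and 5 unchanged probe sets were called too. Data with a larger share of changed probe sets were not simulated. Named were all members, the 3 genes of each list with the largest difference among those whose groups do not overlap, direct partners and paralogues, and the 3 genes nearest in pattern to Fbxw7 and Skp2. The 9 members and the lists were chosen with earlier results of these data known. Alternatives were other summaries per gene, centring, cyclic loess, an offset of 16, a dim filter, other variance settings, a replicate block and leaving out each array.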

Additional observations from a re-analysis of the deposited data

How the results depend on the processing

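With 0 member probe sets called higher in all, 2 alternatives called 1 gene of the 9, Skp2: averaging the probe sets of each gene, and keeping 1 probe set per gene. Over all features these called 252 and 190 genes higher and 276 and 214 lower, and the ordinary test without moderation called 1 probe set lower; fewer features tested is part of how the first 2 are made. With single arrays left out, 0 were called among the members and 0 among all probe sets, in either direction. Skp2 kept its direction in all 13 alternatives (1.20 to 1.64). With all 4 arrays kept, its adjusted p ran from 0.0391 (limma, mean of its probe sets) to 0.312 (ordinary test without moderation). Btrc and Huwe1 also kept theirs, each followed by its brightest probe set or the mean of all its probe sets. The other Huwe1 probe set above the dim limit, 1424949_at, stood at -0.50 and was not followed through the alternatives. The differences of Fbxw7, Cul1, Rbx1, Gsk3b, Usp28 and Usp36 each turned sign in at least 1 alternative. Without Lo replicate 2, Cul1 stood at 0.23, Fbxw7 at -0.081, Gsk3b at -0.20 and Rbx1 at -0.31. Without Lo replicate 1, Rbx1 stood at 0.011, Cul1 at -0.28, Fbxw7 at 0.85 and Gsk3b at 0.27. Without Hi replicate 1, Cul1 stood at 0.062, Gsk3b at -5.7e-05, Usp28 at 0.79 and Usp36 at 0.27. Without Hi replicate 2, Usp28 stood at -0.0048 and Usp36 at -0.15. With arrays shifted to one median Cul1 was 0.071, and with cyclic loess Gsk3b was -0.017; the cause was not tested. Same-numbered arrays share only a number (correlation of their deviations 0.07 over probe sets): with the replicate block 0 members and 0 probe sets were called, and Skp2 stood at 1.49 with a limma adjusted p of 0.193.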
